A study of Mus musculus with 11 samples.

Results

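RNA-seq of im-scWAT cells after 8 days of differentiation was compared between cells that received rosiglitazone (ROS) and cells that never received it. im-scWAT cells are preadipocytes from the inguinal subcutaneous white fat of the mouse, immortalized with the SV40 large T antigen, so they stand for one cultured preadipocyte source and not for the mixture of cells in a fat pad. The comparison used 2 of the 11 samples of the series, the untransduced day 8 ROS plus sample and the untransduced day 8 ROS minus sample, with 1 sample per condition. Both were given the same induction medium with indomethacin, dexamethasone, 3-isobutyl-1-methylxanthine, insulin and T3, then insulin and T3 alone. The ROS plus cells had ROS at 0.5 μM from day 0. The sample labels describe its removal at day 7, whereas the study's methods keep it until day 8, and which applied here is not settled by the files. The other untransduced samples were 1 with and 1 without ROS at day 4, and 2 at day 0, taken before ROS was added and labelled by the arm they belonged to. The remaining 5 samples were day 8 ROS plus cells in which mouse Jmjd1a was knocked down by shRNA (sh-mJmjd1a) and replaced by human JMJD1A, of which 2 carried the wild type (WT A, WT B) and the others a mutant, namely S265A, S265D or S265D-H1120Y, in 1 sample apiece.

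A gene entered the comparison when its FPKM (sequenced fragments scaled to transcript length and to the sample's mapped total) was at least 5 in either day 8 sample, which held for 8942 of 29955 gene symbols. The gene nearest above this limit was Lrp3, with FPKM of 5.00 and 3.69, and the gene nearest below it was Naf1, with 4.93 and a value just under 5. Ratios are ROS plus over ROS minus on the log2(FPKM + 0.1) scale, where the pseudocount of 0.1 shrinks ratios at low FPKM. A gene is called higher or lower when this ratio passes 2-fold. With 1 sample per condition these calls have no replicate check of their own.

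ROS is a ligand of PPARγ, the nuclear receptor that drives adipocyte differentiation and pairs with RXR on DNA near genes of lipid storage and oxidation. White adipocytes kept with a PPARγ ligand take on beige features, among them many mitochondria and UCP1, the protein that lets the inner mitochondrial membrane leak protons to make heat. Preadipocytes, by contrast, resemble fibroblasts: they make collagen matrix, carry contractile actin bundles and secrete chemokines, and these programs recede as fat cells form. Type I interferon acts through factors such as STAT2 and IRF9 on a further set of antiviral genes that most cells, adipocytes included, can express.

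The total of mapped bases per sample was between 3.10 and 5.29 Gb over the 11 samples, and it was 5.08 Gb with ROS and 4.35 Gb without ROS at day 8. An FPKM of 5 on a transcript with 2 kb of exon corresponded to about 508 reads of 100 bases with ROS and 435 without ROS, so counting error was small beside a 2-fold change. All 12 adipocyte markers listed had an FPKM of at least 5 at day 8, and their summed FPKM was 38792 with ROS and 13139 without. Fabp4 made up most of that gap, and the other 11 markers summed to 7389.7 with ROS and 5507 without, with 4 of the 12 lower with ROS by any amount. Of 16 macrophage and leukocyte markers 0 reached an FPKM of 5, 8 of them (among them Ptprc) were at 0 in both day 8 samples, and the list summed to 5.30 with ROS and 3.54 without. The 10 mesothelial and epithelial markers summed to 0.862 and 1.31, the 12 skeletal muscle markers to 0.187 and 0.469, and the 10 endothelial markers to 3.46 and 7.50, with Cdh5 and Cldn5 at 0 and Egfl7 alone at an FPKM of at least 5. In whole cultures, fewer cells of a kind and less RNA per cell cannot be told apart.

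Many more genes were lower with ROS than higher. Of the 8942 genes, 557 (6.23%) were at least 2-fold lower with ROS and 206 (2.3%) at least 2-fold higher, and the log2 ratio ran from -3.49 for Ngfr to 5.67 for Ucp1. The median log2 ratio over all 8942 genes was -0.15. When each ratio was taken relative to that median, 431 genes were lower and 293 higher, so that lower genes made up 59.5% of the calls in place of 73.0%. The larger number of lower genes was therefore kept under this scaling, but by a smaller margin. Scaling both samples to the same upper quartile of FPKM gave 453 lower and 272 higher genes (62.5% lower).

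The pair of day 0, which had not yet been treated differently, was much closer. Among the 8731 genes that reached the same minimum at day 0, 20 (0.229%) were 2-fold apart, and 99% of them lay within a log2 difference of 0.72. At day 8 the ratio was beyond that limit in 986 genes in the direction of lower and in 427 in the direction of higher. A limma fit that takes its spread from the day 0 pair, with 1 residual degree of freedom and the assumption that the single day 8 samples vary as that pair did, called 948 (7.2%) of 13159 genes at an adjusted p of 0.05, 210 higher and 738 lower. Its smallest adjusted p was 0.0467, and the number of calls went from 0 to 1939 with the minimum FPKM, so single genes are given below by their values and not by this test.

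**Figure D1:**
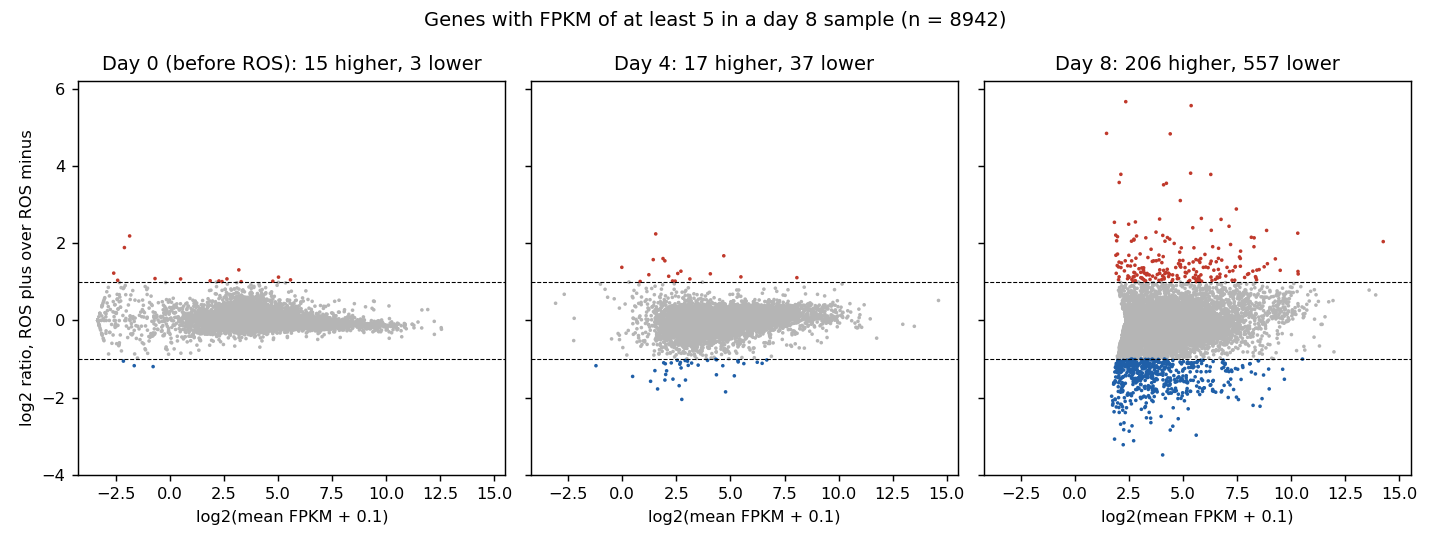
Log2 ratio of FPKM, ROS plus over ROS minus (vertical), against the log2 of the mean FPKM of the 2 samples (horizontal) at days 0, 4 and 8, with 1 point for each of the 8942 genes and dashed lines at 2-fold. At day 8, 206 points lie above the upper line and 557 below the lower line, against 15 and 3 at day 0 and 17 and 37 at day 4.

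The balance between lower and higher genes changed with the level of expression. Of 2271 genes whose higher day 8 FPKM was between 5 and 10, 173 (7.62%) were lower and 37 (1.63%) higher. Among 1001 genes at an FPKM of 100 or more, 56 were lower and 56 higher, and their median log2 ratio was 0.08. The excess of lower genes was thus found below an FPKM of 100, and above it the numbers were equal. Of the 557 lower genes 537 were annotated as coding, and the median exon length was 2295 bases for lower genes, 2388 for higher genes and 2487 for all.

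The 20 lowest ratios belonged to genes of the cell surface, the matrix and the antiviral response. Ngfr (chr11:95430140-95449012, mm9), which encodes the p75 neurotrophin receptor, had FPKM of 0.138 and 0.163 at day 0, 6.11 with and 8.05 without ROS at day 4, and 2.63 with and 30.4 without ROS at day 8. It was nearly silent in preadipocytes, came up in both arms by day 4 and went on to its highest value in the cells without ROS. In the 5 transduced ROS plus samples Ngfr was 2.56 to 10.1, with a median of 3.04, so the ROS minus value lay above all of them. Cd248, which encodes the stromal glycoprotein endosialin, was at 40.1 and 44.8 at day 0, 10.9 with and 16.0 without ROS at day 4, and 5.09 with and 37.1 without ROS at day 8. Its day 8 value without ROS was close to that of preadipocytes, whereas with ROS it was the lowest of the 6 samples.

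Small leucine-rich proteoglycans of the matrix were among the same 20. Ogn, which encodes osteoglycin, had FPKM of 40.0 without ROS and 5.89 with ROS, and Aspn, which encodes asporin, 9.91 without ROS and 1.27 with ROS. Both also differed between the day 0 samples (Ogn 54.1 and 27.6, Aspn 8.97 and 5.06), with the sample of the ROS plus arm higher there, and their transcripts lie in a cluster where rows overlap. Saa3, an acute phase protein of adipocytes, was at 0.0808 and 0 at day 0, 88.6 with and 99.6 without ROS at day 4, and 10.9 with and 86.3 without ROS at day 8. Saa3 was thus near 0 in preadipocytes, at similar levels in both arms at day 4 and then low with ROS. The remaining genes of the 20 named here had an FPKM under 50 without ROS. They include Ass1 of the urea cycle (10.7 without and 1.53 with ROS), the small heat shock protein gene Cryab (46.7 and 7.90), the growth factor pleiotrophin, Ptn (16.7 and 2.83), and Creb3l1 (8.22 and 1.22), a transcription factor of secretory cells. Others are Gm4902, Mx1, Serpinb1a, Cyp2f2, Mrgprf, Olfml2b, Oas1g, Mmp3, M6B and Samd9l, with log2 ratios from -3.22 to -2.38. The rows of Oas1g and of M6B share sequence or position with Oas1a and with Gpm6b, and their values are uncertain for that reason.

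Ranked by the size of the FPKM difference, the lower side was led by antigen presentation and interferon genes and by proteins of preadipocytes. H2-K1, a class I histocompatibility heavy chain, had FPKM of 1956 without ROS and 976 with ROS. Ifitm3, an antiviral membrane protein, was at 1219.6 without ROS and 424 with ROS. The calcium-binding proteins S100a6 and S100a4 were at 782 without ROS and 228 with ROS and at 621 without ROS and 133 with ROS, after 5578 and 6547 for S100a4 at day 0. S100a4 had therefore dropped far below its preadipocyte level in both arms, and further with ROS. The others of these 15 were Ly6e, Isg15, Calr, Ly6a, C3, Car3, H2-T22, H2-T9, Bgn, Hp and Pcolce, and the rows of H2-T22 and H2-T9 overlap and gave nearly the same values (483 and 481 without ROS). Car3, which encodes carbonic anhydrase 3 and is abundant in white fat, was the 1 adipocyte marker of 12 that was called lower, at 469.6 without ROS and 179.6 with ROS.

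Interferon-response genes formed the largest block of lower genes among the 31 gene lists examined. Of 65 measured, 42 were at least 2-fold lower and 0 higher, with a median log2 ratio of -1.14, against -0.15 over all genes. With ratios taken relative to the median of all genes, 32 were lower. Isg15 (chr4:155573533-155574927, mm9), a ubiquitin-like protein conjugated in infected cells, was at 95.5 and 134 at day 0, 273 with and 284 without ROS at day 4, and 158 with and 645 without ROS at day 8. Ifit3, which binds viral RNA complexes together with Ifit1, was at 37.2 and 49.6 at day 0, 54.8 with and 71.4 without ROS at day 4, and 54.4 with and 217 without ROS at day 8, and Ifit1 at day 8 was at 133 without ROS and 37.3 with ROS. In these genes the arms were alike at day 4, and by day 8 the level without ROS had gone up while the level with ROS had not.

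Mx1, an antiviral GTPase, was at 11.7 without ROS and 1.26 with ROS, Rsad2, which makes a chain-terminating nucleotide, at 29.7 without ROS and 8.22 with ROS, and Oas1a, which activates RNase L, at 54.0 without ROS and 12.7 with ROS. The RNA sensor genes Dhx58, Ifih1 and Ddx58 had log2 ratios of -1.74, -1.16 and -1.03. Antigen-processing genes were called less strongly, with -1.11 for the immunoproteasome gene Psmb9 and -1.07 for the peptide transporter gene Tap2, while B2m, the light chain of class I molecules, was at -0.82 and not past 2-fold. Among the transcription factors of the pathway, Irf7 (241 without ROS and 101 with ROS) and Stat2 (45.0 without ROS and 15.8 with ROS) were called lower. Irf9 was at 75.4 without ROS and 48.7 with ROS, not past 2-fold. Over the whole list the log2 ratios ran from -3.12 for Mx1 to -0.11 for Trim25.

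The interferon genes also differed between samples that were both given ROS. WT B was at least 2-fold above WT A in 37 of the 65 genes and WT A above WT B in 0. Of all 8942 genes 13.3% were 2-fold apart in this pair, 7.12% higher in WT B and 6.2% higher in WT A. Ifit3 was at 38.8 in WT A and 220.0 in WT B, a gap like that between the ROS arms. In 15 of the 42 lower genes WT A and WT B differed by at least as much as ROS plus and ROS minus, against 150 of all 557 lower genes. The median of the list was -0.21 between the day 0 samples and -0.11 between the day 4 samples. A difference of this size in interferon genes thus arose between samples of the same label, and the part of such variation in the ROS comparison was not tested.

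Promoter stretches are shown for 4 of these genes because most members of the list were lower. Interferon-stimulated response elements carry repeats of GAAA spaced by a pair of bases, and the pattern GAAANNGAAA was looked up on both strands in RefSeq promoters (GRCm38.p6, 250 bases before to 50 bases after each start), a choice made after the values were seen. It occurred in 1079 of 27025 genes with a promoter in the table (3.99%) and in 29 of the 52 measured interferon genes that could be matched (55.8% of 52, with 80% of the 65 matched). TTTCNNTTTC is the same pattern read on the other strand. Capitals mark the matches in the stretches below, written 5′ to 3′ on the strand of the gene.
Isg15: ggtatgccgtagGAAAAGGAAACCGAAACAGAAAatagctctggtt
Ifit1: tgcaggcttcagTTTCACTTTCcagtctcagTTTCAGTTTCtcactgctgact
Ifit3: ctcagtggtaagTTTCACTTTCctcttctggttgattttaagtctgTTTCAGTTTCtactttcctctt
Oas1a: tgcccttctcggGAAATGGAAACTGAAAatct
The stretches lie at chr4:156200863-156200908 (minus strand), chr19:34640773-34640825 (plus), chr19:34583361-34583428 (plus) and chr5:120907526-120907557 (minus), all upstream of the start of transcription. Isg15 has 3 overlapping matches, beginning 78 to 66 bases before the start, and the other 3 genes have 2 matches each. A match describes the sequence only, and its share on a list of interferon-response genes says nothing about ROS.

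Of 8 measured chemokines 7 were lower and 0 higher. Ccl2, which attracts monocytes, was at 351 and 328 at day 0, 48.3 with and 103 without ROS at day 4, and 25.9 with and 93.0 without ROS at day 8. Ccl2 and its neighbour Ccl7 (57.9 without ROS and 15.3 with ROS at day 8) were highest in preadipocytes, so they declined in both arms and further with ROS. Of 15 cytokine receptors and decoys 2 were lower, namely Il1rn, which blocks interleukin-1, and Il4ra, with log2 ratios of -1.82 and -1.59. The median of the whole list of 25 was -0.68 for ROS and -0.87 for WT A over WT B. WT B was 2-fold above WT A in 12 of these genes, and Ccl2 was at 4.16 in WT A and 109 in WT B.

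Of 26 complement and acute phase genes 15 were lower and 0 higher, with a median log2 ratio of -1.10. For WT A over WT B their median was -0.54, with 7 of the 26 at least 2-fold higher in WT B and 5 in WT A. In 5 of the 15 lower genes WT A and WT B differed by at least as much as the ROS arms. C3, the central complement component, was at 0.790 and 0.636 at day 0, 427 with and 616 without ROS at day 4, and 229.7 with and 613 without ROS at day 8. Haptoglobin, Hp, was at 0.0477 and 0.207 at day 0, 67.4 with and 137 without ROS at day 4, and 73.2 with and 304 without ROS at day 8. These genes came up during differentiation in both arms, and the ROS plus level was the lower one at day 4 and at day 8. In the 5 transduced ROS plus samples C3 was 119 to 176, with a median of 155, and Hp was 3.11 to 31.2, with a median of 12.2, all below the ROS minus values of both genes. Lcn2, an iron-siderophore carrier, was at 85.4 without ROS and 29.8 with ROS and the factor B gene Cfb at 19.0 without ROS and 7.34 with ROS. Cfd, which encodes adipsin, was at 1887 without ROS and 1182 with ROS, not past 2-fold.

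Among the 31 lists, which leave out the cell type marker lists, genes of preadipocytes and fibroblasts had the lowest median. Of 21 measured, 12 were lower and 0 higher, with a median log2 ratio of -1.30. For WT A over WT B their median was -0.92, with 9 of the 21 at least 2-fold higher in WT B. Ly6a, which encodes the stromal progenitor antigen Sca-1, was at 424 and 484 at day 0, 141 with and 167 without ROS at day 4, and 108 with and 495 without ROS at day 8, and Cd34, another surface marker of adipose stromal cells, at 32.3 and 36.9 at day 0, 8.84 with and 12.7 without ROS at day 4, and 4.52 with and 19.8 without ROS at day 8. In cells without ROS both were higher at day 8 than at day 4, and in cells with ROS both were lower. The platelet-derived growth factor receptor genes Pdgfra and Pdgfrb, with log2 ratios of -0.94 and -0.98, lay just short of 2-fold. The mesenchymal transcription factors Prrx1, Prrx2, Snai1, Snai2 and Osr1 were all called lower (-1.29, -2.15, -1.30, -1.35 and -1.46), whereas Twist1 (-0.53) and Twist2 (0.27) were not.

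Of 34 collagen genes and genes of collagen processing, 20 were lower and 0 higher, with a median log2 ratio of -1.21. Col1a1 (chr11:94797584-94813170, mm9), a chain of the main fibrillar collagen, was at 412 and 420.4 at day 0, 90.8 with and 132 without ROS at day 4, and 47.1 with and 170.3 without ROS at day 8, and Col3a1 at 269 and 272 at day 0, 172 with and 269 without ROS at day 4, and 72.3 with and 250.5 without ROS at day 8. Preadipocytes thus had the most Col1a1, both arms had less at day 4, and at day 8 the level recovered in part without ROS and declined with ROS. By role, 5 of 6 fibrillar chains were lower, with Col1a2 at -1.68 and Col5a1 at -1.78, against 3 of 8 network, beaded and basement membrane chains. Col4a1 and Col4a2 of the basement membrane were at -0.22 and -0.50, and Col6a1, abundant in fat, at 395 without ROS and 244 with ROS. Among processing genes 11 of 19 were lower, including the cross-linking enzyme gene Lox (71.9 without ROS and 31.3 with ROS), the propeptide-cleavage enhancer gene Pcolce (283 without ROS and 71.1 with ROS) and the collagen chaperone gene Serpinh1 (205 without ROS and 67.4 with ROS).

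In the 5 transduced ROS plus samples Col1a1 was 128 to 183, with a median of 149.8, nearer to the ROS minus value of 170.3 than to the ROS plus value of 47.1. Fn1, the gene of fibronectin, reached 237 in those samples with a median of 202, against 96.4 without ROS and 28.6 with ROS in the untransduced pair. The untransduced ROS plus sample thus stood below all transduced ROS plus samples for both genes. The transduced cells differ from it in virus and in JMJD1A as well.

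Of 45 matrix glycoproteins and proteoglycans 24 were lower and 3 higher. Postn, which encodes periostin, was at 129 without ROS and 36.1 with ROS, and Bgn, which encodes biglycan, at 409 without ROS and 162 with ROS. Sparc (-0.98) and Dcn (-0.84), the genes of osteonectin and decorin, were not past 2-fold, and Mgp, the matrix Gla protein gene, was at -0.02. Higher were 2 proteoglycan genes, the lubricin gene Prg4 (6.30 with ROS and 1.32 without) and Prelp (27.5 with ROS and 12.5 without). The remaining higher entry, Smpdl3a (7.45 with ROS and 3.30 without), is an enzyme gene that the list holds among the glycoproteins. Among matrix proteases and their inhibitors 14 of 28 were lower and 1, Mmp11, higher (12.2 with ROS and 5.83 without), a call that was lost at a pseudocount of 1. Between WT A and WT B the median of the protease list was -0.89, and 12 of the 28 were 2-fold higher in WT B. The lower genes included both proteases and inhibitors: the gelatinase gene Mmp2 was at 56.2 without ROS and 16.5 with ROS, its activator Mmp14 at 31.8 without ROS and 9.88 with ROS, and the inhibitor genes Timp1, Timp2 and Timp3 at log2 ratios of -1.99, -1.68 and -1.85.

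Actin-bundle genes, many of them targets of serum response factor (SRF), were lower from a level that had already gone down. Of 44 measured, 15 were lower and 0 higher, with a median log2 ratio of -0.75. The median between WT A and WT B, both with ROS, was -0.79 for these genes, and 17 of the 44 were 2-fold higher in WT B. Acta2, smooth muscle actin, was at 131 and 139.6 at day 0, 2.52 with and 10.7 without ROS at day 4, and 4.43 with and 12.6 without ROS at day 8, and Myl9, a myosin light chain, at 36.4 and 42.6 at day 0, 2.82 with and 9.35 without ROS at day 4, and 3.40 with and 11.8 without ROS at day 8. Both arms stood far below preadipocytes, and within days 4 and 8 the ROS plus sample was the lower one. Acta2 and Tagln are also markers of mural cells, a list of 10 that summed to 24.4 with ROS and 40.0 without, with Rgs5 and Kcnj8 at 0 in both day 8 samples. Mcam, the most highly expressed marker of that list, did not differ, at 15.27 with ROS and 15.32 without. The SRF gene itself, Srf, was at 9.96 without ROS and 7.57 with ROS, and Actb, cytoplasmic actin, at 524 without ROS and 286 with ROS, neither past 2-fold. CArG boxes, the elements bound by SRF, were found in 9 of 38 matched promoters of the list (23.7%) and in 1.81% of all promoters. Among its lower members they were found in 3 of 13 matched promoters (23.1%). The list holds SRF targets by design, so its share says nothing about ROS. For illustration, the stretch of the Myl9 promoter at chr2:156775291-156775324 (GRCm38.p6, plus strand) is given with its CArG box in capitals.
Myl9: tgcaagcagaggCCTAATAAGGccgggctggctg

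Relative to the median of all genes, the numbers of lower genes were 10 of 25 for chemokines, interleukins and receptors, 12 of 26 for complement and acute phase genes, 12 of 21 for preadipocyte and fibroblast genes, 19 of 34 for collagens, 21 of 45 for matrix glycoproteins, 13 of 28 for proteases and inhibitors and 13 of 44 for actin-bundle genes. The lower side thus held for each of these lists under that scaling.

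Signalling lists held fewer calls than the collagen, matrix and actin-bundle lists. Their shares of lower genes were still above the 6.23% of all 8942 genes, in the TGF-beta and BMP list and in the Wnt list. In the TGF-beta and BMP pathway 6 of 29 genes (20.7%) were lower and 0 higher. Ligand and receptor genes were not past 2-fold for Tgfb1 (17.7 without ROS and 11.8 with ROS) and Tgfbr2 (23.8 without ROS and 13.4 with ROS), while the called genes were the follistatin family members Fst, Fstl1 and Fstl3, the antagonist Nbl1, the procollagen protease Bmp1 and the target Tgfbi. Of 20 Wnt pathway genes 4 were lower and 0 higher, namely the receptor gene Fzd2 (5.34 without ROS and 1.68 with ROS), the antagonist genes Sfrp2 (28.8 without ROS and 9.46 with ROS) and Apcdd1 (24.1 without ROS and 9.40 with ROS), and Wisp2 (16.9 without ROS and 7.35 with ROS). Ctnnb1, the β-catenin gene through which the pathway acts, was at -0.10. Apart from the membrane proteins Fzd2 and Apcdd1, the genes past 2-fold in these lists encode secreted proteins.

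**Figure D2:**
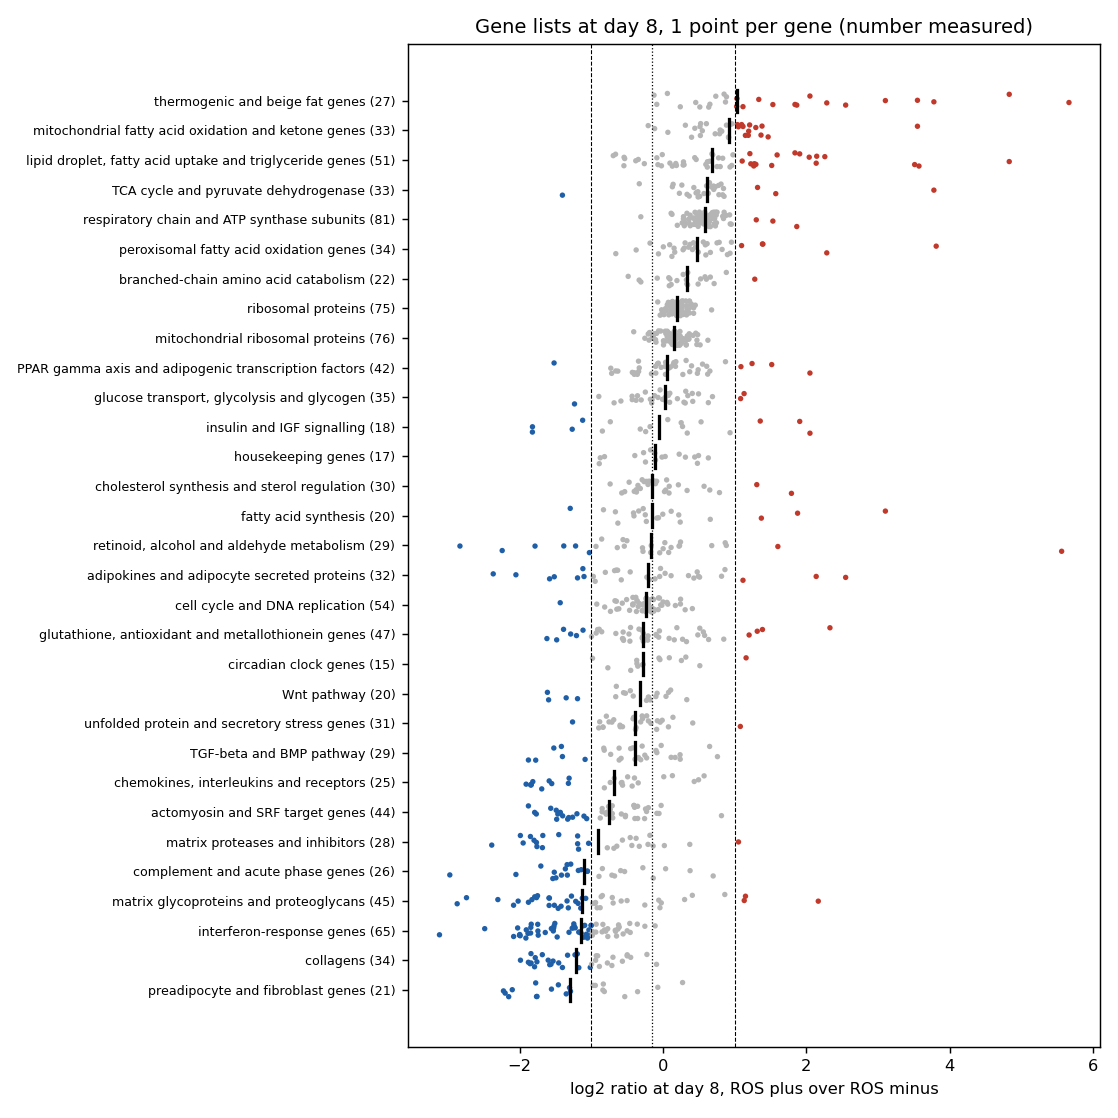
Log2 ratio at day 8, ROS plus over ROS minus, for the measured genes of 31 lists, with 1 point per gene, red at least 2-fold higher and blue at least 2-fold lower, a black bar at each list's median, dashed lines at 2-fold and a dotted line at the median of all genes. Medians run from -1.30 for preadipocyte and fibroblast genes to 1.03 for thermogenic and beige fat genes.

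On the higher side, thermogenic and beige fat genes had the highest median. Of 27 measured, 15 were at least 2-fold higher and 0 lower, with a median log2 ratio of 1.03. Between WT A and WT B, which were both given ROS, the median of this list was 1.30, larger than between the ROS arms. WT A was at least 2-fold higher in 14 of the 27 and WT B in 0. In 7 of the 15 called genes WT A and WT B were at least as far apart as the ROS arms, against 37 of all 206 higher genes. Ucp1 (chr8:85814247-85822355, mm9) was at 0 and 0.0261 at day 0, 0.0360 with and 0 without ROS at day 4, and 9.90 with and 0.0970 without ROS at day 8, and Cidea, a lipid droplet protein of brown and beige fat, at 0.0367 and 0 at day 0, 0.118 with and 0.110 without ROS at day 4, and 40.8 with and 1.34 without ROS at day 8. Both were near 0 up to day 4 in both arms and were expressed at day 8 with ROS. Between samples with ROS their level varied widely: Ucp1 was 0.0528 to 12.1, with a median of 0.972 in the 5 transduced samples, and Cidea 2.35 to 43.4, with a median of 7.29. Elovl3, a very long chain elongase, was at 52.3 with ROS, a log2 ratio of 3.10, the hormone gene Fgf21 at 11.8 with ROS and 1.93 without, and the muscle-type respiratory subunit genes Cox7a1 and Cox8b at 156 with ROS and 42.8 without and at 117 with ROS and 40.3 without. Ppargc1a, the coactivator of mitochondrial genes, was at 5.09 with ROS and 3.19 without, a log2 ratio of 0.66, not past 2-fold.

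Among the 15 highest ratios were also those of Rbp7 and Pdk4. Rbp7, a retinol-binding protein of fat, was at 0.144 and 0.0725 at day 0, 4.72 with and 0.920 without ROS at day 4, and 81.0 with and 1.62 without ROS at day 8, and Pdk4, the kinase that shuts off pyruvate dehydrogenase, at 6.71 and 7.35 at day 0, 14.2 with and 13.3 without ROS at day 4, and 145 with and 10.4 without ROS at day 8. Rbp7 differed between the arms from day 4 on, whereas Pdk4 was alike at day 4. In the transduced ROS plus samples Rbp7 was 2.01 to 9.69, with a median of 6.26. The other genes among the 15 were Rdh16 (5.22 with ROS and 0.0854 without), Acaa1b, Pbld1, Niacr1, Cpt1b, Plin5, Chchd10, Ephx2, Rnf125 and Tmem140, with log2 ratios from 2.62 (Tmem140) to 4.84 (Rdh16). Acaa1b shares most of its sequence with Acaa1a, so its reads may be divided between the 2 rows.

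Of 51 genes of the lipid droplet, fatty acid uptake and triglyceride turnover, 17 were higher and 0 lower, with a median log2 ratio of 0.68, and 12 had a ratio below 0. Fabp4, the adipocyte fatty acid-binding protein, was at 248 and 249 at day 0, 29589.7 with and 20694 without ROS at day 4, and 31402 with and 7631 without ROS at day 8, so that it alone took 2.01% of mapped bases at day 8 with ROS and 0.489% without. Cidec, which fuses lipid droplets, was at 0.150 and 0.189 at day 0, 1507 with and 784 without ROS at day 4, and 2087 with and 436 without ROS at day 8. In both genes the level without ROS was lower at day 8 than at day 4. By role, 4 of 10 droplet proteins, 5 of 15 uptake and binding genes, 4 of 15 triglyceride synthesis genes and 4 of 11 lipolysis genes were higher. They included Cd36, a fatty acid transporter (489 with ROS and 130.3 without), the glycerol-3-phosphate dehydrogenase gene Gpd1 (1794 with ROS and 745 without), the triglyceride lipase gene Pnpla2 (924 with ROS and 306 without) and the hormone-sensitive lipase gene Lipe (450.4 with ROS and 209 without). Plin1 (0.68), Lpl (0.29), Dgat1 (0.69) and Dgat2 (-0.54) were not past 2-fold.

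Of 33 genes of mitochondrial fatty acid oxidation 13 were higher and 0 lower, and of 34 peroxisomal ones 5 higher and 0 lower. Relative to the median of all genes, 18 and 8 were higher. Their medians for WT A over WT B were 0.73 and 0.49, against 0.92 and 0.47 for ROS. Cpt1b, the muscle-type carnitine palmitoyltransferase at the entry of the pathway, was at 34.4 with ROS and 2.85 without, while the liver-type gene Cpt1a was at 16.7 with ROS and 19.3 without, a log2 ratio of -0.21. The medium-chain dehydrogenase gene Acadm was at 701 with ROS and 253 without. In the respiratory chain 80 of 81 subunit genes had a log2 ratio above 0, 3 were past 2-fold (Cycs, Cox8b and Cox7a1), and the median was 0.58. Relative to the median of all genes, 9 subunit genes were past 2-fold. For WT A over WT B the median of this list was 0.60, and 18 of the 81 were 2-fold higher in WT A. In the TCA cycle and pyruvate dehydrogenase list 3 of 33 were higher (Dlat, Pdk2 and Pdk4) and 1 lower (Pdk3), with the citrate synthase gene Cs at 651 with ROS and 380.2 without. The 3 higher genes were 9.09% of the list, against 2.3% of all genes. The median of this list was 0.61 for ROS and 0.87 for WT A over WT B, and 12 of the 33 were 2-fold higher in WT A. Ribosomal protein genes, none of 75 past 2-fold, had a median of 0.20 and mitochondrial ribosomal protein genes, none of 76, a median of 0.16, against -0.15 for all genes.

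Of 42 regulators of adipogenesis 4 were higher (9.52%, against 2.3% of all genes) and 1 lower (2.38%, against 6.23%), with a median log2 ratio of 0.06. Pparg was at 19.0 and 19.3 at day 0, 115 with and 136 without ROS at day 4, and 139.6 with and 231 without ROS at day 8, so the gene of the receptor that ROS binds was the lower one with ROS at day 8, though not past 2-fold. Its partner Rxra was at 46.3 with ROS and 45.2 without and Cebpa at 281 with ROS and 200.2 without. Past 2-fold were Ppara, a receptor of fatty acid oxidation genes (9.77 with ROS and 2.28 without), the cofactors Ppargc1b (9.21 with ROS and 3.83 without), Tle3 (37.6 with ROS and 17.6 without) and Lpin1 (137 with ROS and 47.8 without), and, on the lower side, Klf4 (9.40 without ROS and 3.22 with ROS).

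The counts of the following lists stand beside shares of 2.3% higher and 6.23% lower over all 8942 genes. Some lie near those shares, such as 3.23% higher and 3.23% lower for the stress genes of the secretory pathway, and are given as description only. Fatty acid synthesis had 3 of 20 genes higher (Elovl3, Acacb and Scd3) and 1 lower (Pnpla3), with the fatty acid synthase gene Fasn at -0.34 and Scd1, the stearoyl-CoA desaturase gene, at -0.66. Its median was -0.16 as deposited and -0.01 relative to all genes. Insulin and IGF signalling had 3 of 18 genes higher (Irs2 and Htra3 among them) and 4 lower (Htra1, Igfbp6, Igfbp3 and Igfbp7), with the insulin receptor substrate gene Irs2 at 28.7 with ROS and 6.86 without. Of 32 adipokines and secreted proteins 3 were higher (Fgf21, Angptl4 and Nrg4) and 7 lower, with Adipoq, the adiponectin gene, at 1291 with ROS and 709 without, Retn, the resistin gene, at -0.23 and Rbp4, the plasma retinol carrier gene, at 0.11. Glycolysis and glycogen genes had 2 of 35 higher and 1 lower, cholesterol and sterol genes 2 of 30 higher and 0 lower, and branched-chain amino acid catabolism 1 of 22 higher and 0 lower, or 2 higher relative to the median of all genes. Glutathione and antioxidant genes had 4 of 47 higher, led by Txnip (775 with ROS and 154 without), and 6 lower, led by Gpx3 (10.5 without ROS and 3.35 with ROS). In the retinoid and aldehyde list 2 of 29 were higher (Rbp7 and Retsat) and 6 lower, and 4 were higher relative to the median of all genes. Of 15 clock genes 1 was higher and 0 lower, of 31 stress genes of the secretory pathway 1 was higher (Dnajb9) and 1 lower (Calr), and of 54 cell cycle genes 1 was lower (Cdkn2b). None of 17 housekeeping genes was past 2-fold, and their median was -0.10, or 0.04 relative to all genes.

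Lists reached their day 8 levels by different paths from the preadipocyte, and the paths also differed within the lower side. Against the mean of the day 0 pair, 52 of 65 interferon genes were at least 2-fold above it without ROS and 28 with ROS, and of all 8942 genes 1573 and 1714 were. Complement and acute phase genes were above it in 23 of 26 without and 19 with ROS. Without ROS most genes of both lists were thus at least 2-fold above day 0, and with ROS fewer were. Genes had to reach the minimum FPKM at day 8 and not at day 0, which favours genes that rose. Collagen genes were at least 2-fold below day 0 in 12 of 34 without and in 26 with ROS, preadipocyte and fibroblast genes in 12 of 21 and in 17, and actin-bundle genes in 28 of 44 and in 33, against 557 and 1334 of all 8942 genes. In those lists more genes were past 2-fold below the preadipocyte with ROS than without. Thermogenic genes were 2-fold above day 0 in 20 of 27 without and 24 with ROS, at medians of 1.98 and 4.34 on the log2 scale.

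**Figure D3:**
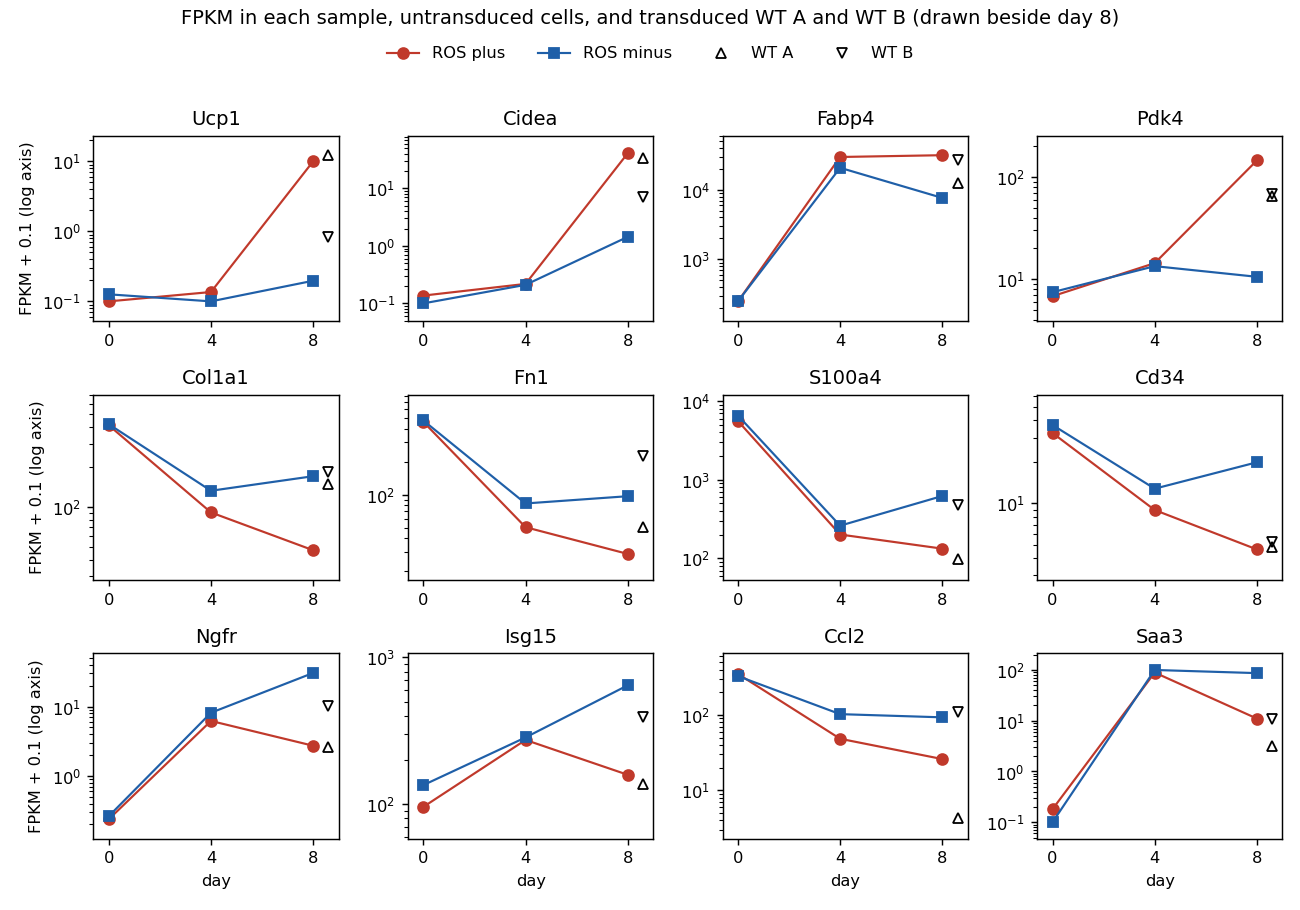
FPKM + 0.1 on a log axis against day for 12 named genes, with circles for ROS plus, squares for ROS minus, 1 sample per point, and open triangles beside day 8 for the transduced WT A (pointing up) and WT B (pointing down). Ngfr, Isg15 and Cd34 separate between day 4 and day 8, with Isg15 at 645 without and 158 with ROS at day 8.

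The day 4 pair, which shares no sample with the day 8 pair, gave smaller differences in the genes called at day 8. Of the 557 genes lower at day 8, 510 (91.6%) were lower with ROS at day 4 by any amount, against 53.8% of all 8942 genes, and 31 were at least 2-fold lower, of 37 (0.414%) among all genes, and 0 at least 2-fold higher. Of the 206 genes higher at day 8, 184 (89.3%) were higher at day 4 by any amount, against 46.2% of all genes, and 15 were at least 2-fold higher, of 17 (0.19%) among all genes, and 0 at least 2-fold lower. The median log2 ratio at day 4 was -0.38 for the genes lower at day 8 and 0.37 for those higher, against -0.02 over all genes. Lists differed in how much was already present: the median at day 4 was -0.40 for collagens, -0.51 for complement and acute phase genes and 0.31 for the respiratory chain, but -0.11 for interferon genes.

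WT A and WT B, which carried the same label and were both given ROS, were farther apart than the day 0 pair. By the number of genes past 2-fold they were also farther apart than the ROS arms. Of all 8942 genes 1191 (13.3%) were 2-fold apart between WT A and WT B, against 763 between the day 8 ROS arms. Of the 557 lower genes 264 (47.4%) were 2-fold apart between WT A and WT B, 222 of them higher in WT B and 42 higher in WT A, against 13.3% of all genes. Among the 206 higher genes 78 (37.9%) were 2-fold apart, 60 of them higher in WT A. WT A and WT B differed by at least as much as the ROS arms in 150 of the 557 and in 37 of the 206, against 5322 of all 8942 genes. The called genes were picked for a large ROS ratio, which by itself lowers their counts here. For most of the called genes that were 2-fold apart in this pair, WT A thus stood on the side of ROS plus and WT B on the side of ROS minus. Whether such variation contributed to the ROS comparison was not tested.

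**Figure D4:**
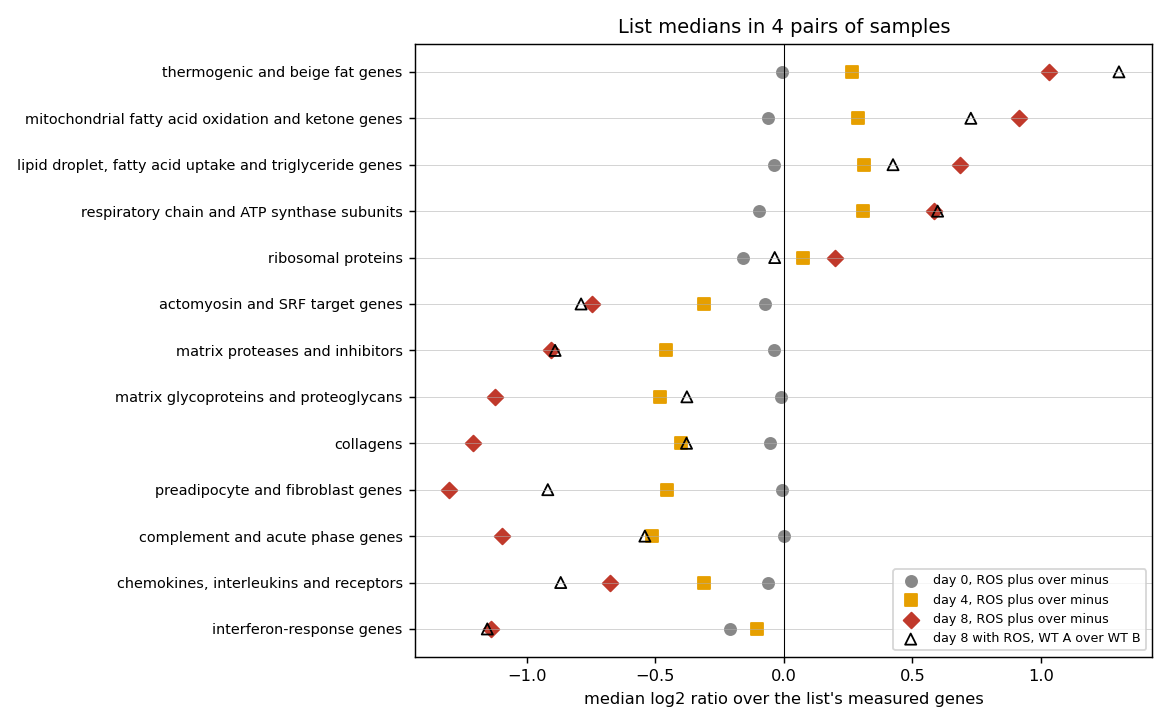
Median log2 ratio over the measured genes of 13 lists in 4 pairs of samples, namely ROS plus over minus at days 0, 4 and 8, and WT A over WT B at day 8 with ROS. Interferon genes are at -1.14 for ROS at day 8, -1.15 for WT A over WT B and -0.11 for ROS at day 4, while collagens are at -1.21, -0.38 and -0.40.

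Most of the called genes were on none of the 31 lists, with 374 of the 557 lower and 134 of the 206 higher genes outside them. Of the lower genes 515 were not on the interferon list. In 78 of the lower and 26 of the higher genes the transcript overlapped another counted row on the chromosome, as in 1764 of all 8942 genes, so reads of the 2 rows may not be fully separated.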

How the data were processed

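Strand-specific RNA-seq libraries (TruSeq) of mouse im-scWAT cells were compared at day 8 with and without ROS. Per the study's methods, the authors aligned reads with the Burrows-Wheeler Aligner to UCSC transcripts and the mm9 genome and deposited 1 FPKM value per transcript and strand, along with a coverage column of mapped bases, a deposited signal used here for depth only. Each file held 110838 rows for 55419 transcripts. The sense row marked as representative of its gene symbol was used, and a gene was kept when either day 8 sample reached an FPKM of 5. Columns give no read counts, so no count model was run.

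Ratios are log2(FPKM + 0.1) with ROS minus without ROS, called past 2-fold. Total mapped bases of 3.10 to 5.29 Gb per sample limit precision for low FPKM, and nothing in the labels says that samples were separate cultures. The day 0 pair gave the spread. limma 3.58.1 (R 4.3.3) was fitted to the 6 untransduced samples with trend and Benjamini-Hochberg adjustment, so single samples are assumed to vary like the day 0 pair. On simulated data with 200 of 13159 genes changed by 4-fold in the day 8 comparison, limma called 200 of the 200 when genes of a level shared a spread and 0 when the spread varied between genes, and in the latter case 198 changed genes and 263 unchanged genes were past 2-fold. In the data 20 genes of the day 0 pair were 2-fold apart, and 1191 of 8942 genes were between WT A and WT B. By these numbers the spread simulated in that case was wider than that of the day 0 pair. It was narrower than that between WT A and WT B. Python 3.11.15 and pandas 2.3.3 were used otherwise.

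Named genes were the 20 lowest and 15 highest ratios, the 15 largest FPKM differences past 2-fold in each direction, and for each list the most extreme and role-defining members. A PPAR half-site repeat, AGGTCANAGGTCA, was also looked up, and was found in 0 of 151 higher genes with a promoter and in 13 of 27025 genes overall. At a share of 0.0481% of all promoters the pattern is too rare for 151 promoters to show a difference, so that check is void. Of the higher genes 73.3% had a promoter in the table, against 77.3% of the genes compared at day 8. The members and lists were chosen with earlier results of these data known, and the promoter patterns after the values were seen. RefSeq promoters (GRCm38.p6) were matched by symbol, transcript or synonym, and coordinates of that build were not mixed with mm9. Alternatives were other pseudocounts, minimum FPKM values, fold limits, scalings, gene rows and the sum of strands. Values of a few genes that meet the naming rule are not reported here.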

Additional observations from a re-analysis of the deposited data

Results flagged for a closer look

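In 2 genes the ROS ratio had opposite signs at day 4 and day 8, each beyond the 99th percentile of the day 0 pair, a log2 difference of 0.72 over all genes. Among genes with an FPKM of 5 to 10, the range of the higher day 8 value of both, that percentile was 0.87, and their day 4 ratios lay inside it. Dbil5 had FPKM of 4.37 with and 2.45 without ROS at day 4, a log2 ratio of 0.81, and 2.78 with and 5.40 without ROS at day 8, a log2 ratio of -0.93. H2-t9 had 2.66 with and 1.45 without ROS at day 4, a log2 ratio of 0.83, and 2.69 with and 5.32 without ROS at day 8, a log2 ratio of -0.96. With 1 sample per condition and day, the difference between the days was not tested. Both genes lie near the minimum FPKM, and H2-t9 shares sequence with other class I histocompatibility genes.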

How the results depend on the processing

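The number of genes at least 2-fold higher, 206 as reported, was 136 at a minimum FPKM of 20, 475 with no minimum, 627 at 1.5-fold and 39 at 4-fold. The number lower, 557, was 1137 at a minimum FPKM of 1, 222 at 20, 1783 with no minimum, 1318 at 1.5-fold and 58 at 4-fold. Lower genes outnumbered higher ones under each of these settings. The day 0 pair, with 20 genes apart, had 7 at a pseudocount of 1, 67 at a minimum FPKM of 1 and 4 at 20. limma, with 948 genes called, called 1497 at a pseudocount of 1, 1939 at a minimum FPKM of 5 and 0 with no minimum above 0.1, where 5139 genes had an unadjusted p under 0.05 and the smallest adjusted p was 0.101. The cause of these shifts in limma was not tested. No other alternative moved one of these counts over all genes by more than 1.5 times, and none changed the sign of a named gene's called ratio. Among gene lists, centring on the median of all genes moved the number higher from 3 to 9 for the respiratory chain, from 5 to 8 for peroxisomal oxidation, from 2 to 4 for the retinoid list and from 1 to 2 for branched-chain catabolism. Mmp11 was no longer called at a pseudocount of 1, nor was Egfl7, the endothelial marker, at that pseudocount or with centring.

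Of 342 named genes, 47 moved by more than the day 0 spread at a pseudocount of 1 and 2 with the row of the highest mean. No paired analysis was possible because the day 8 conditions hold 1 sample each and so share fewer than 2 replicate numbers. Leaving out a replicate was not possible either. Read depth limits genes of low FPKM.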
